A study of Drosophila melanogaster with 8 samples.

Results

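Heterochromatin in flies is marked by methylation of histone H3 at lysine 9 (H3K9). The mark is handled by methyltransferases that write it, proteins of the heterochromatin protein 1 (HP1) family that read it, and partners that work with either. In the ovary, the methyltransferase encoded by egg and its partner encoded by wde are known to be needed for germline development, and HP1a is known to compact silenced chromatin and to cap telomeres. The genes described here are 10 of these, chosen by name: the readers HP1a (listed in the files under its Su(var) symbol, with the FlyBase ID FBgn0003607, and also written Su(var)2-5), HP1b and HP1c, the writers egg, Su(var)3-9 and G9a, the writer's partner wde, and the HP1a partners Su(var)3-7, HP4 and HP5. All 10 were found by the files' own symbols among the 11397 genes of the authors' comparison table, and by FlyBase ID among the 14094 genes of their abundance table. The series compared Stonewall (Stwl) overexpression, 4 libraries labelled Test StwlEY and called StwlOE here, with a Control of 4 libraries without overexpression. Stwl binds DNA, is needed to keep female germline stem cells, and has a known link to heterochromatin. Each library came from about 35 ovaries of Drosophila melanogaster females, 4 to 5 days old, in both groups enriched for cells resembling germline stem cells by genetic tools. The sources used here do not give the driver, the alleles, the background strains or whether each replicate was a separate cross. The p-values therefore cover only the spread among these 8 libraries, and strain and overexpression cannot be told apart.

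Abundances were deposited as TPM, a unit that corrects for transcript length and gives all libraries an equal total, so levels of different genes can be compared. They keep no depth, so the depth behind each value is unknown. As a check of the labels, stwl was at 45.5, 55.5, 62.6 and 67.8 TPM in StwlOE replicates 1 to 4, against 21.9 to 25.1 TPM in Control, a log2 difference of 1.25 (adjusted p 0.000323 in limma). Of the 8898 genes that averaged 1 TPM or more, 552 were higher and 194 lower with overexpression at an adjusted p under 0.05 in limma, so 74% of calls were higher. That share was 58.4% with median-of-ratios scaling and 48.1% with quantile normalization. The germline markers vas, nos, aub, bam and Sxl were present in all libraries, and none of the 5 passed. Their sums were 606 to 879 TPM in StwlOE and 819 to 897 TPM in Control. All 5 log2 fold changes were below 0, with a median of -0.18. Ovarian muscle sheath genes were higher (6 of 6, sums 2619 to 3266 TPM in StwlOE, 1580 to 2125 TPM in Control). Eggshell (chorion) genes of late follicle cells were higher (6 of 6, 1469 to 6787 TPM in StwlOE, 89.0 to 728 TPM in Control). So were those of hemocytes (4 of 5, 43.0 to 64.2 TPM in StwlOE, 19.5 to 31.1 TPM in Control). The eggshell genes Vm26Aa, Vm26Ab and Vm34Ca, outside these lists, did not pass in limma, with log2 fold changes of -0.21, -0.21 and -0.29. Of 5 tested somatic gonad markers, 0 passed in limma, but 4 had log2 fold changes above 0. Unadjusted p was under 0.05 in limma for 3 of them, Wnt4, ptc and Fas3, all higher, against 21.3% of all tested genes in either direction. No marker of these lists was at 0 in all libraries, and their part in the results below was not tested. In such bulk samples, fewer cells of a type and less RNA per cell cannot be told apart.

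None of the 10 genes passed the test between StwlOE and Control at an adjusted p of 0.05 in limma, against a background of 8.38% of all tested genes called in either direction. At an unadjusted p under 0.05 in limma, 2 of the 10 were called, Su(var)3-9 and G9a, both lower, against 21.3% of all tested genes in either direction and 7.32% for lower ones. The same pair had adjusted p under 0.05 in the authors' deposited table, where the background was 18.9% of genes in either direction and 8.4% for lower genes. The 10 log2 fold changes lay between -0.38 and 0.15, and their median was 0.04, beside 0.01 over all tested genes. The authors' own mark of Up or Down was given to no member, since the smallest absolute log2 fold change among genes so marked was 0.6. A plot of the abundances shows how small the differences were beside the distances between genes.

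**Figure D1:**
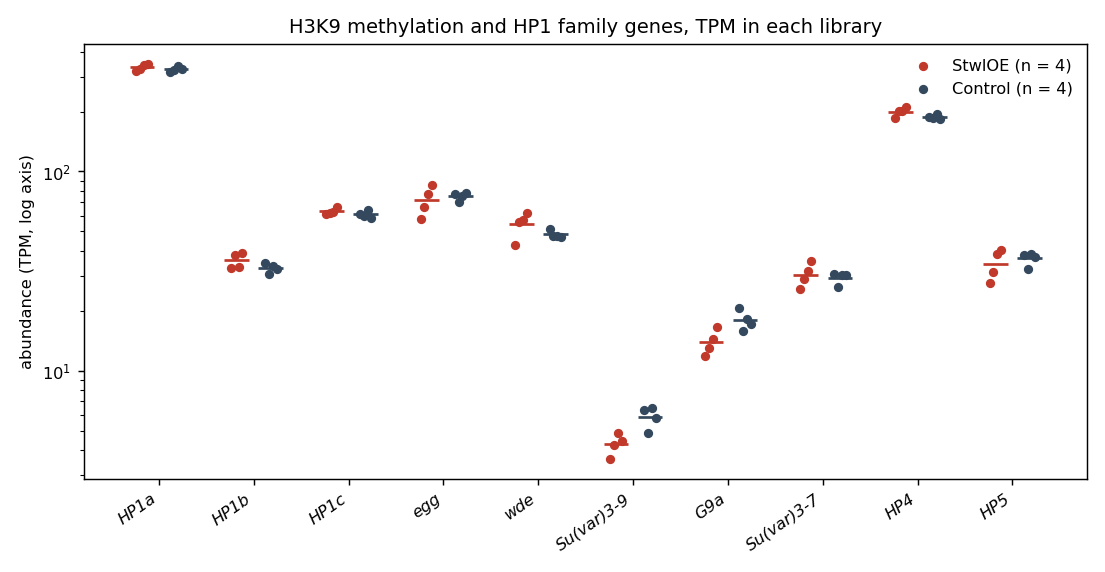
Abundance in TPM (log axis) of the 10 genes in each StwlOE library (red, left) and Control library (blue, right), with bars at the group means (n = 4 each). Levels spanned from 3.60 TPM for Su(var)3-9 in StwlOE replicate 1 to 348 TPM for HP1a in StwlOE replicate 4, and the groups lay close together for each gene.

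Levels in TPM set the genes apart far more than the overexpression did. In StwlOE libraries the order of the means was HP1a, HP4, egg, HP1c, wde, HP1b, HP5, Su(var)3-7, G9a and Su(var)3-9, and in Control libraries it was the same but for HP1b and HP5, which changed places. Within StwlOE, the ranges over libraries overlapped between egg and HP1c, between HP1c and wde, between HP1b and HP5 and between HP5 and Su(var)3-7. Read within each library, HP1c was above wde and HP5 above Su(var)3-7 in all 4 StwlOE libraries, whereas egg and HP1c, and HP1b and HP5, changed places between libraries. Within Control, only HP5 and HP1b had overlapping ranges among neighbours, and HP5 was above HP1b in all 4 libraries. HP1a stood at the 96.5th percentile of mean TPM among tested genes and HP4 at the 93.3rd, whereas G9a stood at the 32.7th and Su(var)3-9 at the 16.0th.

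Among the readers, HP1a is the founding member of the family and binds methylated H3K9 through its chromodomain. The gene (FBgn0003607) lies on chromosome 2L, 8209626 to 8211122, minus strand, in the BDGP6 annotation of Ensembl release 115. Its abundance was 319, 325, 341 and 348 TPM in StwlOE replicates 1 to 4, against 315, 325, 337 and 328 TPM in Control replicates 1 to 4. The groups overlapped in part: StwlOE replicates 3 and 4 lay above every Control library and Control replicate 1 below every StwlOE library. The means were 333 ± 13.3 TPM in StwlOE and 326 ± 9.08 TPM in Control (SD, n = 4 each). On the log2(TPM + 1) scale the fold change was 1.02 with a 95% interval of 0.953 to 1.09 (adjusted p 0.781 in limma). In the authors' deposited table its log2 fold change was 0.000444 (SE 0.0536). With quantile normalization the sign of this small difference turned, to a log2 fold change of -0.02.

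HP1b, a paralogue found in both euchromatin and heterochromatin (FBgn0030082, chromosome X, 9081063 to 9082746), was at 32.9, 38.0, 33.3 and 39.0 TPM in StwlOE replicates 1 to 4, against 34.9, 30.7, 33.4 and 32.4 TPM in Control. StwlOE replicates 2 and 4 were the 2 highest of the 8 libraries, and the other StwlOE libraries lay within the Control range. Its fold change was 1.08 with a 95% interval of 0.962 to 1.22 (adjusted p 0.447 in limma). HP1c, a mostly euchromatic paralogue (FBgn0039019, chromosome 3R, 22745620 to 22746605), was at 61.5, 61.9, 62.9 and 66.1 TPM in StwlOE, against 61.5, 59.9, 64.0 and 58.4 TPM in Control. These groups overlapped too, with a fold change of 1.03 and a 95% interval of 0.953 to 1.12 (adjusted p 0.681 in limma). The last 160 exonic bases of HP1c, or 16.2% of its exonic length, are shared with CG17141 on the opposite strand, and the sources used here do not say whether strand was used in quantification.

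The proportions of the 3 HP1 paralogues within a library need no scaling between libraries. HP1a made up 77.1% ± 0.642 of their summed TPM in StwlOE and 77.7% ± 0.798 in Control (SD, n = 4 each). HP1c made up 14.6% ± 0.198 and HP1b 8.28% ± 0.598 in StwlOE, against 14.5% ± 0.434 for HP1c and 7.83% ± 0.464 for HP1b in Control (SD, n = 4 each). All 3 shares overlapped between the groups.

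Among the writers, egg encodes the fly SETDB1, the methyltransferase that is known to be required in germline stem cells and their progeny. The gene (FBgn0086908) lies on chromosome 2R, 24775534 to 24779901, minus strand, and shares 629 exonic bases with the antisense RNA asRNA:CR44067. It was at 57.8, 66.6, 76.9 and 85.6 TPM in StwlOE replicates 1 to 4, against 77.2, 70.1, 75.6 and 78.0 TPM in Control. StwlOE replicates 1 and 2 lay below every Control library and StwlOE replicate 4 above every one. The mean was 71.7 ± 12.1 TPM in StwlOE and 75.2 ± 3.56 TPM in Control (SD, n = 4 each), and the fold change was 0.945 with a 95% interval of 0.795 to 1.12 (adjusted p 0.76 in limma). Its direction rested on StwlOE replicate 1, without which the log2 fold change was 0.02 (adjusted p 0.924 in limma).

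The partner of egg is wde, which encodes the fly counterpart of mammalian ATF7IP and binds the egg product in the germline. It lies on the same chromosome (FBgn0027499, 2R, 10800420 to 10808938). Its abundance was 42.9, 55.5, 57.2 and 62.2 TPM in StwlOE, against 51.6, 47.5, 47.7 and 47.1 TPM in Control. StwlOE replicates 2, 3 and 4 were above all Control libraries and StwlOE replicate 1 was below them all. Over all 8 libraries wde did not pass (fold change 1.11, 95% interval 0.943 to 1.31, adjusted p 0.477 in limma). Without StwlOE replicate 1 it passed with a log2 fold change of 0.26 (adjusted p 0.023 in limma), and it also passed with library weights (0.25, adjusted p 0.00395 in limma). Higher calls over all tested genes rose as well, from 552 to 988 without StwlOE replicate 1 and to 2293 with library weights. The median log2 fold change of all tested genes moved from 0.01 to 0.06 in both settings.

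Abundance of wde was also set against that of egg within each library. The ratio of wde to egg TPM was 0.742, 0.834, 0.743 and 0.726 in StwlOE replicates 1 to 4, against 0.668, 0.677, 0.631 and 0.604 in Control replicates 1 to 4. The 2 groups did not overlap, as was so for 24.3% of all pairs of tested genes above 0 in every library, and the means were 0.761 ± 0.049 in StwlOE and 0.645 ± 0.0339 in Control (SD, n = 4 each). This ratio was chosen after its values were seen, so it is given as a description with no test.

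Su(var)3-9 encodes the methyltransferase of pericentric heterochromatin and was the least abundant of the 10. The gene (FBgn0263755) lies on chromosome 3R, 15259864 to 15263458, minus strand. It was at 3.60, 4.24, 4.85 and 4.44 TPM in StwlOE replicates 1 to 4, against 6.33, 4.85, 6.53 and 5.78 TPM in Control. No StwlOE library was above a Control library, although StwlOE replicate 3 and Control replicate 2 were all but equal. Of all tested genes, 16% had groups that did not overlap, and Su(var)3-9 was the 1 member that did so. Its mean was 4.28 ± 0.519 TPM in StwlOE and 5.87 ± 0.753 TPM in Control (SD, n = 4 each). On the log2 scale it was lower by a value of -0.38 (SE 0.122), which is a fold of 0.769 with a 95% interval of 0.636 to 0.93 (adjusted p 0.0993 in limma). A 2-sided exact permutation test gave p = 0.0286, and 4 against 4 libraries can give none smaller. In the authors' deposited table it was lower, with a log2 fold change of -0.49 (SE 0.119, adjusted p 0.000567).

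Su(var)3-9 shares its start with a gene of another function. Of its exonic bases 352, or 14.8%, are also exons of eIF2gamma, a subunit of a translation initiation factor on the same strand of 3R (15257844 to 15263458), so the division of reads between the 2 is uncertain. eIF2gamma was far more abundant, at 221 ± 5.15 TPM in StwlOE and 214 ± 10.7 TPM in Control (SD, n = 4 each), and did not pass (adjusted p 0.643 in limma). Their summed TPM, which eIF2gamma dominates, had a log2 fold change of 0.04 (adjusted p 0.74 in limma).

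G9a encodes a methyltransferase that acts mainly on H3K9 in euchromatin. The gene (FBgn0040372) lies on chromosome X, 245978 to 254650, plus strand, and overlaps no other annotated gene. It was at 11.9, 13.0, 14.5 and 16.6 TPM in StwlOE, against 20.6, 15.8, 18.2 and 17.2 TPM in Control. StwlOE replicates 1 to 3 lay below every Control library, and StwlOE replicate 4 lay above Control replicate 2 alone. The mean was 14.0 ± 2.04 TPM in StwlOE and 18.0 ± 2.03 TPM in Control (SD, n = 4 each). Its log2 fold change was -0.34 (SE 0.116), a fold of 0.789 with a 95% interval of 0.658 to 0.946 (adjusted p 0.117 in limma), and the 2-sided exact permutation p was 0.0571. In the authors' deposited table G9a was lower with a log2 fold change of -0.40 (SE 0.0844, adjusted p 4.44e-05). Both Su(var)3-9 and G9a passed as lower with median-of-ratios scaling (adjusted p 0.0183 for Su(var)3-9 and 0.0149 for G9a in limma), with quantile normalization (0.00622 for Su(var)3-9 and 0.00821 for G9a) and with library weights (0.0213 for Su(var)3-9 and 0.0115 for G9a). Lower calls over all tested genes also rose in these settings, from 194 to 585, 715 and 804 in that order. Neither gene passed in any of the 8 fits that left out 1 library.

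**Figure D2:**
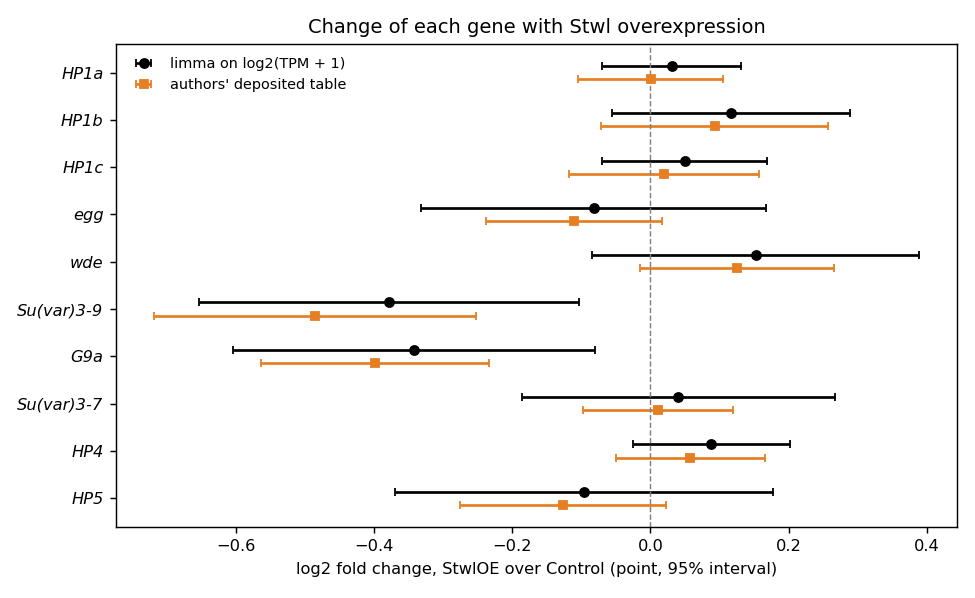
Log2 fold change of each gene, StwlOE over Control, with its 95% interval, from limma on log2(TPM + 1) (black circles, 4 against 4 libraries) and from the authors' deposited table (orange squares, interval from their standard error). The intervals of Su(var)3-9 and G9a lie below 0 in both sources, and those of the other 8 genes span 0.

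The 3 writers stood in different proportions in the 2 groups, although none of them passed in limma without scaling or weights. Of their summed TPM, egg made up 78.8%, 79.4%, 79.9% and 80.3% in StwlOE replicates 1 to 4, against 74.1%, 77.2%, 75.4% and 77.2% in Control. G9a made up 15.0% to 16.2% in StwlOE and 17.1% to 19.8% in Control, and Su(var)3-9 4.16% to 5.05% in StwlOE and 5.34% to 6.51% in Control. None of the 3 shares overlapped between groups, and since they add up to the whole they are not independent of one another. No background was computed for shares of 3 genes. The shares include Su(var)3-9 and G9a, the members with the lowest fold changes in these same libraries, so they are a description. The ratio of Su(var)3-9 or G9a to each of the other 8 members was lower in every StwlOE library than in every Control library for all 16 such pairs. Among the 28 pairs of the other 8 members, 4 had ratios that did not overlap between the groups, beside the 24.3% of all pairs given above. Su(var)3-9 and G9a were singled out because their fold changes were the lowest of the members in these same libraries. Low ratios to the other members largely follow from that choice, and the 24.3% covers pairs not picked in this way. The pairs also share genes and libraries, so these counts are a description.

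**Figure D3:**
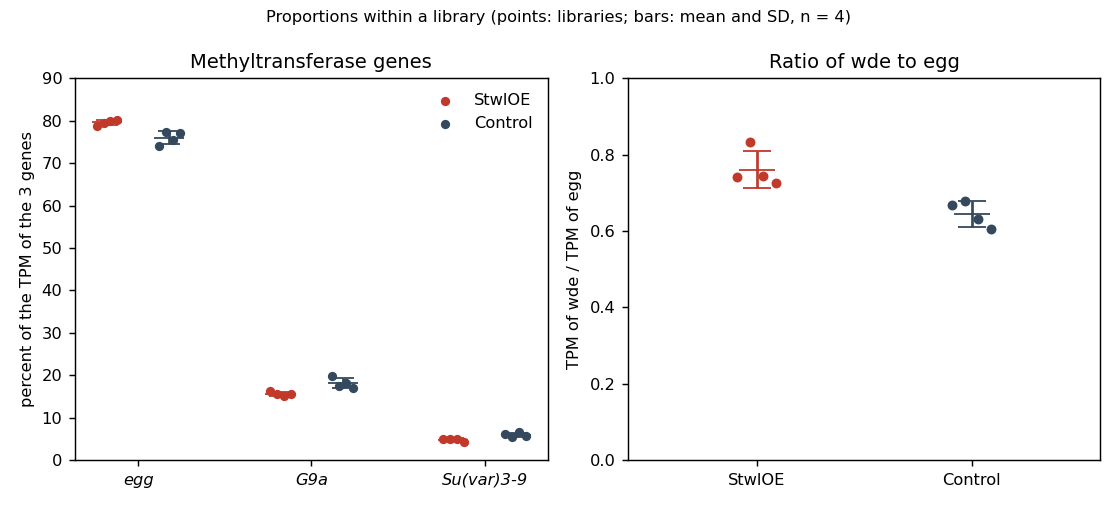
Left, the percent of the summed TPM of egg, G9a and Su(var)3-9 that each gene takes in StwlOE (red) and Control (blue) libraries. Right, the ratio of wde to egg TPM. Points are libraries and bars the mean with the SD (n = 4 each). Here egg took 79.6% in StwlOE and 76.0% in Control, and the groups do not overlap in any of the 4 quantities. No background was computed for the shares, and all 4 quantities are a description.

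Of the 3 HP1a partners, none passed. Su(var)3-7 encodes a zinc finger protein of pericentric heterochromatin (FBgn0003598, chromosome 3R, 13264364 to 13270038). It was at 25.6, 28.9, 31.6 and 35.4 TPM in StwlOE, against 30.6, 26.4, 30.2 and 30.2 TPM in Control. StwlOE libraries held both the lowest and the highest of the 8 values, with a fold change of 1.03 and a 95% interval of 0.879 to 1.20 (adjusted p 0.881 in limma). Its exons share 693 bases with TBC1D5 on the opposite strand.

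HP4, which encodes a small protein that binds HP1a (FBgn0035829, chromosome 3L, 7975438 to 7976154), was the second most abundant member. It was at 186, 201, 202 and 211 TPM in StwlOE, against 187, 186, 195 and 183 TPM in Control. StwlOE replicates 2 to 4 lay above all Control libraries, and the fold change was 1.06 with a 95% interval of 0.983 to 1.15 (adjusted p 0.371 in limma). HP5 encodes a further HP1a-binding protein (FBgn0030301, chromosome X, 11454786 to 11459227). It was at 27.6, 31.3, 38.5 and 40.5 TPM in StwlOE, against 38.0, 32.5, 38.7 and 37.2 TPM in Control, with a fold change of 0.936 and a 95% interval of 0.774 to 1.13 (adjusted p 0.742 in limma). As for egg, StwlOE replicates 1 and 2 lay below every Control library and replicate 4 above every one.

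The StwlOE libraries differed among themselves in a shared way. All 10 members were lowest in replicate 1 among the StwlOE libraries, and 9 were highest in replicate 4, the exception being Su(var)3-9. Over all tested genes, 67.7% were lowest in StwlOE replicate 1 and 57.1% highest in StwlOE replicate 4, so much of the transcriptome had this pattern. The SD of log2(TPM + 1) was larger in StwlOE than in Control for 8 of 10 members and for 73.8% of all tested genes. Between libraries, egg varied with a coefficient of variation of 16.9% in StwlOE and 4.73% in Control, and HP1a with 3.98% in StwlOE and 2.78% in Control. Abundance of stwl was likewise lowest in StwlOE replicate 1 and highest in StwlOE replicate 4, and the part of this in the members' values was not tested.

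**Figure D4:**
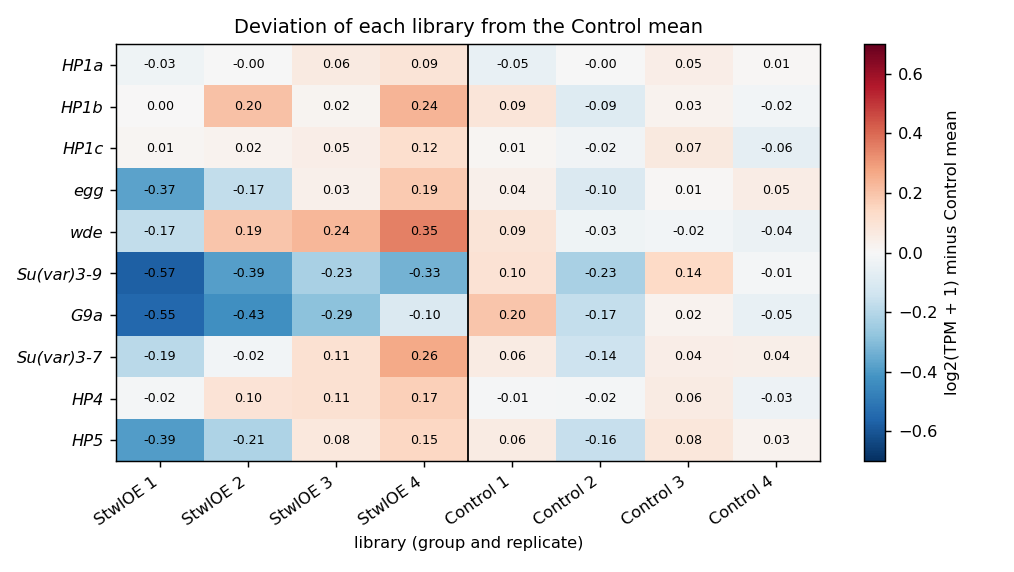
Difference of log2(TPM + 1) from the Control mean for each gene (rows) in each library (columns, StwlOE left of the line, Control right), with the value printed in each cell. StwlOE replicate 1 ranges down to -0.57 for Su(var)3-9 and StwlOE replicate 4 up to 0.35 for wde, while Su(var)3-9 and G9a are below 0 in all 4 StwlOE libraries.

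Over the 8 libraries, the 3 tested genes whose log2(TPM + 1) was most like that of HP1a were dgt1, Dlip3 and cold, with Pearson's r of 0.979, 0.975 and 0.970. For egg they were Cdc7, which encodes a kinase that starts DNA replication, Tab2 and l(2)k05819, with r of 0.997, 0.994 and 0.991. These are the highest of 8897 values each over 8 libraries, which share the group and the spread among StwlOE libraries just described, so they are a description only.

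The authors' deposited table marks a Stwl peak within 1 kb of the gene body for 7 of the 10 genes, or 70%, against 73.7% of all its genes. The 3 without one were HP1a, HP1c and Su(var)3-9. Of the 2 members with an adjusted p under 0.05 in that table, G9a was thus marked and Su(var)3-9 was not. No member was listed as upregulated in either of the other studies that table names, as 21.2% of all its genes were.

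Other genes of the pathway were followed in 8 lists of 43 genes. Of these, 41 were tested, since the HP1 paralogue HP1e was listed at 0 in all 8 libraries and moi was not analysed here. In limma 1 of the 41 was higher and 2 were lower, against backgrounds of 6.2% higher and 2.18% lower. The 3 calls became 14 with median-of-ratios scaling, 12 with quantile normalization and 13 with library weights. They became 7 without the 20 most abundant genes, 6 without StwlOE replicate 1 and 5 with a replicate block. Calls over all tested genes rose too, from 552 higher and 194 lower to 820 and 585 with median-of-ratios scaling. They were 663 and 715 with quantile normalization and 2293 and 804 with library weights. No excess over these was tested. The statements on single lists below hold for the limma test named and not for every setting. Fold changes of 29 of the 41 were below 0, with a median of -0.08 on the log2 scale. The authors' deposited table had 2 higher and 14 lower of the 41, against backgrounds of 10.5% and 8.4%.

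Of the other HP1 paralogues, HP6 and rhi were tested. Neither passed in limma, and the groups of neither overlapped, as was so for 16% of all tested genes. HP6, a chromoshadow protein derived from HP1b, was at 73.2, 90.5, 89.4 and 92.7 TPM in StwlOE, against 56.9, 49.0, 71.1 and 72.3 TPM in Control (log2 fold change 0.48, adjusted p 0.0569 in limma). rhi, which encodes the HP1 paralogue that marks piRNA clusters, was at 34.6, 39.5, 41.9 and 43.3 TPM in StwlOE, against 49.4, 45.3, 51.1 and 46.5 TPM in Control (log2 fold change -0.27, adjusted p 0.0731 in limma). In the authors' deposited table HP6 was higher and rhi lower, with adjusted p of 0.00259 for HP6 and 2.02e-07 for rhi.

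None of the 10 HP1a partners and heterochromatin proteins passed in limma, with a median of -0.06. The authors' deposited table had 4 of them lower, sov, Lhr, ADD1 and D1, with log2 fold changes of -0.43, -0.42, -0.18 and -0.15. The most abundant were D1, which binds satellite DNA, at 385 ± 35.1 TPM in StwlOE and 417 ± 15.1 TPM in Control, and the chromatin remodeller gene XNP, at 61.1 ± 6.29 TPM in StwlOE and 64.4 ± 4.26 TPM in Control (SD, n = 4 each). Both HP1c partners, woc and row, had log2 fold changes of 0.08 and -0.10 and did not pass. Of the 8 genes of the SUMO pathway and of co-repressors that work with SETDB1, none passed in limma, and 7 were below 0. The authors' deposited table had 2 of them lower, HDAC1 and Mi-2. Among the 8, smt3, which encodes SUMO, was at 1297 ± 103 TPM in StwlOE and 1378 ± 51.7 TPM in Control. The gene of its conjugating enzyme, lwr, was at 330 ± 21.6 TPM in StwlOE and 339 ± 7.12 TPM in Control (SD, n = 4 each). Another list held 6 genes, of histone demethylases, a co-repressor and an H3 kinase, not all of which oppose the mark. None of them passed in limma, while 3 were lower in the authors' deposited table, Kdm3, Su(var)3-3 and JIL-1. The co-repressor gene CoRest had a log2 fold change of -0.03 and the H3 kinase gene JIL-1 one of -0.16.

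Of 6 genes of piRNA-guided silencing, which brings egg to transposons, 1 passed in limma, mael, which was lower, and 2 were lower in the authors' deposited table, mael and piwi. Abundance of mael was at 75.2, 85.3, 91.0 and 105 TPM in StwlOE, against 116, 108, 116 and 116 TPM in Control (log2 fold change -0.36, adjusted p 0.0462 in limma), and it kept that call under 10 of 17 alternatives. ctp and piwi, the most abundant others, had log2 fold changes of 0.04 and -0.25 and did not pass in limma, although piwi passed as lower with median-of-ratios scaling as well as in the authors' deposited table (adjusted p 7.53e-05). Of 4 tested telomere capping genes none passed in limma and 1 was lower in the authors' deposited table, HipHop. In limma HipHop and cav had log2 fold changes of -0.20 and -0.07.

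Genes that are known to need SETDB1 for their silencing in the ovary moved in different directions. All 3 were expressed in Control, and the values are totals per gene. They cannot show which transcript of a gene changed, and silencing itself was not tested. Phf7, a gene of male germline fate, rose, at 58.9 to 73.3 TPM in StwlOE against 45.6 to 49.9 TPM in Control (log2 fold change 0.48, adjusted p 0.00427 in limma). RpS19b, a germline ribosomal protein paralogue, fell, at 134 to 168 TPM in StwlOE against 348 to 395 TPM in Control (log2 fold change -1.31, adjusted p 1.86e-05 in limma). No call was made for blanks, which was at 111 ± 15.5 TPM in StwlOE and 119 ± 5.82 TPM in Control (SD, n = 4 each; adjusted p 0.613 in limma).

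**Figure D5:**
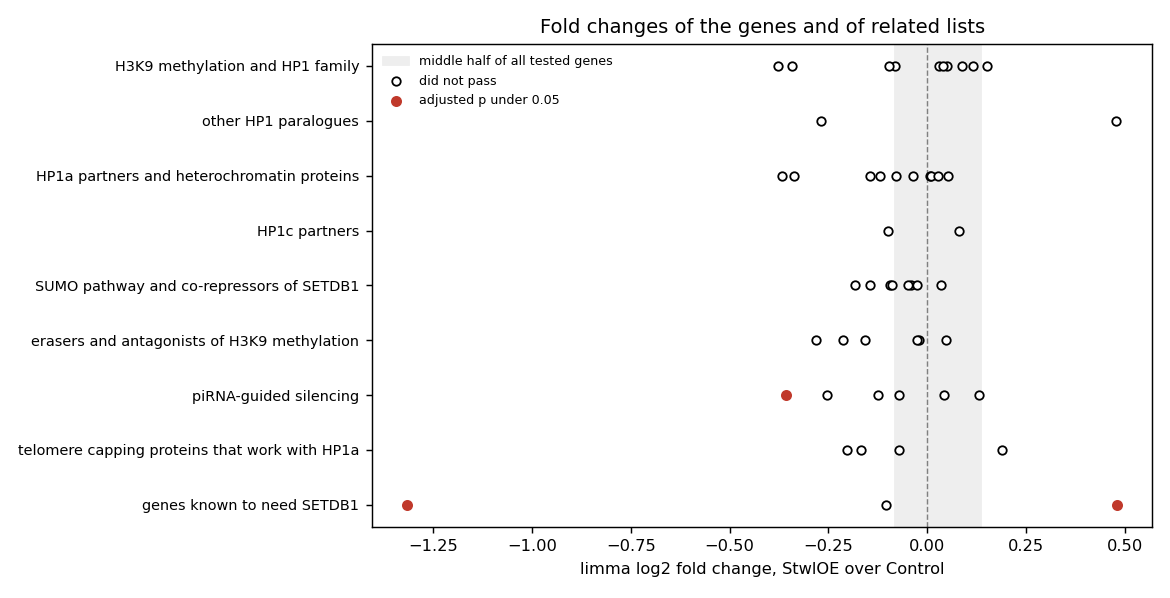
Limma log2 fold change, StwlOE over Control, of each tested gene of the 10 described here (top row) and of 8 related lists, with red points past an adjusted p of 0.05 and a shaded band from the lower to the upper quartile of all tested genes (-0.08 to 0.14). Only mael, Phf7 and RpS19b are red, and Su(var)3-9 and G9a are the leftmost points of the top row. The row of erasers and antagonists also holds Su(var)3-3 and CoRest, which do not erase H3K9 methylation.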

How the data were processed

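Polyadenylated RNA was sequenced from 8 ovary samples with a TruSeq mRNA kit, per the labels' protocols. The authors deposited TPM values, whose headers name a log2 TPM although each column sums to 1000000, so they were used as linear. They also deposited their own comparison, with a mean normalized signal, log2 fold changes and standard errors, a score equal to their quotient, and raw and adjusted p-values. Salmon 1.10.1, DESeq2 1.37.4 and BDGP 6 are named in the submitters' processing notes with no role given. No counts were used, so no count model was run. Here, genes averaging 1 TPM or more were transformed to log2(TPM + 1), which understates changes of low genes, and fitted with limma 3.58.1 (R 4.3.3, group as the only term, variance trend), with Benjamini-Hochberg adjustment over all 8898 genes and a threshold of 0.05. The fit was tested on simulated data. Coordinates and overlaps came from Ensembl release 115. The text names all members, the genes of each list called in limma or in the authors' table, and the 3 genes most like HP1a or egg. It also names the 2 most abundant genes of each list among those not called in limma. The members and lists were chosen with earlier results of these data known. Alternatives were other pseudocounts, filters, scalings and weights, a replicate block, each library left out, and the authors' table. Figures used matplotlib 3.10.9 in Python 3.11.15.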

Additional observations from a re-analysis of the deposited data

Results flagged for a closer look

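In 34 groups of 4 libraries (10 genes, 6 shares and their summed TPM in each group), 1 library stood far from its other 3 in 3 cases, and chance gives about 1 in 20. wde was at 51.6 TPM in Control replicate 1, against 47.1 to 47.7 TPM in the other Controls. Su(var)3-7 was at 26.4 TPM in Control replicate 2, against 30.2 to 30.6 TPM in the others. The share of Su(var)3-9 in the TPM of the 3 writers was 4.16% in StwlOE replicate 4, against 4.92% to 5.05% in the other StwlOE libraries.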

How the results depend on the processing

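The count of the 10 members called was 0 in limma and stayed 0 with a pseudocount of 0.1, with both other filters and with a replicate block. It was 2 with median-of-ratios scaling, 2 with quantile normalization, 1 without the 20 most abundant genes (Su(var)3-9), 4 with library weights (Su(var)3-9, G9a, wde and HP4), 2 in the authors' deposited table, and 0 to 1 when 1 library was left out. Calls over all genes moved as well. Among 8898 genes, 552 higher and 194 lower calls became 2293 and 804 with library weights. They became 820 and 585 with median-of-ratios scaling and 663 and 715 with quantile normalization. Without the 20 most abundant genes they were 657 and 379 among 9097 genes. The authors' deposited table had 1113 and 893 among 10631 genes. The member counts were not tested against these. Leaving out 1 library gave 336 (without StwlOE replicate 3) to 988 (without StwlOE replicate 1) higher and 99 (without Control replicate 3) to 248 (without StwlOE replicate 1) lower calls. The cause of these shifts was not tested. Small log2 fold changes that never passed turned sign. HP1a came to -0.0185 with quantile normalization. With library weights egg came to 0.0171 and HP5 to 0.0255. When 1 library was left out, egg ranged between -0.171 (without StwlOE replicate 4) and 0.0156 (without StwlOE replicate 1), HP5 between -0.176 and 0.00254 without the same libraries, and Su(var)3-7 between -0.0343 (without StwlOE replicate 4) and 0.117 (without StwlOE replicate 1), with -0.00764 without Control replicate 2. Su(var)3-9 summed with eIF2gamma came to 0.0378. Same-numbered libraries deviated together with correlations of 0.128, -0.0174, -0.134 and 0.144, and differently numbered ones with -0.246 to 0.271. These values gave no sign of pairing by number, but such weak correlations cannot exclude it. The replicate block gave 576 higher and 202 lower calls. Depth is unknown for TPM; the authors' deposited table gives Su(var)3-9 a mean normalized signal of 264.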
